A study of Homo sapiens with 6 samples.

Results

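Transcripts of 9 complement genes, C3, CFB, C1R, C1S, SERPING1, CFI, CD46, CD55 and CD59, were examined in the A549 line, which comes from an adenocarcinoma of the human lung. They were taken by gene name from the 58735 genes counted, and each name matched 1 gene. All cells had been stably infected with lentivirus, in 3 groups of 2 libraries of total RNA. The WT group carried PLVX-HOXB9, that is, HOXB9, a homeobox transcription factor. The T133A group carried PLVX-HOXB9-T133A, with alanine in place of a threonine, and the KO group PLVX-HOXB9 KO, as labelled. All were grown in RPMI medium with fetal bovine serum. The groups used here include no empty vector and no uninfected cells, and the labels do not state whether a line was 1 clone or whether the cells' own HOXB9 was intact beside the constructs. Nor do they say whether a group's 2 libraries were made from different cultures. The spread behind each p-value is that between these samples, and it may be technical.

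Complement is a cascade of plasma proteins that marks cells for uptake or lysis. The classical pathway starts through C1q and the proteases C1r and C1s that are bound to it. The alternative pathway amplifies C3 cleavage through factor B, and both lead to deposition of C3b and to the membrane attack complex. C1 inhibitor (SERPING1) blocks C1r and C1s, factor I (CFI) cuts C3b with a cofactor, and the membrane proteins CD46, CD55 and CD59 shield the cell that carries them. The liver makes most plasma complement, and epithelial cells, including those of the lung, make part of it locally.

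Promoter sequence is shown for 3 genes. CFB and C1R were higher in T133A and lower in KO, and CD55 had the largest fall in KO among the 9. C3 and C1S were also called higher in T133A and lower in KO. No window was listed for C3, C1S or SERPING1, so their promoters were not searched. Each sequence shown is the 250 bases before a RefSeq start on GRCh38.p14, and the count tables are on GRCh38. It is written 5′ to 3′ along the gene, and C1R has 2 listed starts. By the gene coordinates of the count tables, the CFB and CD55 windows and the later of the C1R windows lie inside the annotated gene. The upstream C1R window overlaps it in part. Capitals mark matches, on either strand, to the letters TTCNNTTTC (an ISRE core, bound by interferon-activated factors), TTCNNNGAA (a GAS, bound by STAT factors) or TTGCNNAA (C/EBP).
CFB, chr6:31945845-31946094, plus strand: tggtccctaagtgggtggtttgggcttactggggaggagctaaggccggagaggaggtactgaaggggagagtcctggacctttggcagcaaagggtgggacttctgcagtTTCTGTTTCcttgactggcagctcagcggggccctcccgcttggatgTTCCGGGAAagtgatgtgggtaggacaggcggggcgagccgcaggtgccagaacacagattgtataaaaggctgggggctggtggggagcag
C1R, chr12:7092446-7092695, minus strand: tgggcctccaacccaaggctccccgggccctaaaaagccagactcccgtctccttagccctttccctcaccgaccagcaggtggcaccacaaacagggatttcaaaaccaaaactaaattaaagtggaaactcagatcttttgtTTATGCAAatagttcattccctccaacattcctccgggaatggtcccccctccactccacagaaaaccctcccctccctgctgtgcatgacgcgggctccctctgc
C1R, chr12:7091894-7092143, minus strand: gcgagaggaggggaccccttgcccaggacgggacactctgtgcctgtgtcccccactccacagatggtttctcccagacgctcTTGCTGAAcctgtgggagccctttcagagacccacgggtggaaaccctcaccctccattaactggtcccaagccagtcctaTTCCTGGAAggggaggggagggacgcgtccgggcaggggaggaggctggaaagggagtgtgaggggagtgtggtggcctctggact
CD55, chr1:207321428-207321677, plus strand: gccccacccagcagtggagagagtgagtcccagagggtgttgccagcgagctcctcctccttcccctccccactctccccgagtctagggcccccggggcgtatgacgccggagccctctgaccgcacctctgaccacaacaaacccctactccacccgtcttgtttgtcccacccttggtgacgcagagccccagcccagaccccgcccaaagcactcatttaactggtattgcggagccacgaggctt

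The CFB window held an ISRE core, TTCTGTTTC, from 139 to 131 bases before the start, and a GAS, TTCCGGGAA, from 92 to 84 bases before it. The upstream window of C1R held a C/EBP match, TTATGCAA, and its other window held TTGCTGAA and the GAS match TTCCTGGAA. No match was found in the CD55 window. Of the genes not printed, CD59 held the GAS match TTCTCAGAA, which lies in 2 overlapping windows, and the C/EBP matches TTAGGCAA and TTGCTCAA in another. The windows of CD46 and CFI held no match. Among all 35116 RefSeq windows of this length, 6.88% held the ISRE core, 6.57% the GAS and 9.05% the C/EBP letters. The kB letters, bound by NF-kB (GGGA and TTCC with any 2 bases between), were in 1.4% of all windows and TTTATNG (posterior HOX proteins) in 8.93%, and neither was in any of the 11 windows listed for 6 of the 9 genes (CD55, CD46, CFI, CFB, CD59 and C1R). A match is a description of the letters, and binding was not measured.

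Libraries held 16299059 to 18745432 counts. HOXB9 gave 3807 and 3889 counts in the WT libraries, 4777 and 3577 in those of T133A, and 239 and 286 in those of KO, so its transcript was low in both libraries labelled KO (log2 fold change from WT -3.88, SE 0.135, adjusted p = 3.27e-16). Of 8 epithelial markers, 6 exceeded 1 CPM (a gene's counts relative to its library's TMM-scaled total) in every library. EPCAM was at 14.5 and 16.9 CPM in WT, 13.0 and 12.5 CPM in T133A, and 1.94 and 1.72 CPM in KO. CDH1 was at 128 and 137 CPM, 138 and 125 CPM, and 64.4 and 78.9 CPM in the same order. KRT7 went the other way, at 868 and 886 CPM, 1400 and 1225 CPM, and 1923 and 1637 CPM. The lung lineage markers NKX2-1 and SFTPB had at most 4 counts in any library. The sum over 5 endothelial markers was 0.724 to 1.69 CPM in WT, 2.23 to 2.41 CPM in T133A and 0.376 to 0.606 CPM in KO. Over 6 hepatocyte markers it was 3.51 to 3.68 CPM in WT, 1.94 to 2.99 CPM in T133A and 0.43 to 0.728 CPM in KO. SERPINA1 gave the most in WT and T133A, and APOB was at 0. Of 7 haematopoietic markers only CD14 exceeded 1 CPM in every library, and PTPRC, which marks all leukocytes, had 1 count in all 6 libraries together. Their sum was 8.52 to 11.8 CPM in WT, 11.5 to 13.3 CPM in T133A and 5.58 to 11.0 CPM in KO. Fibroblast markers summed to 20.3 to 21.5 CPM in WT, 16.9 to 19.8 CPM in T133A and 9.46 to 10.4 CPM in KO. Most of that sum was COL3A1 and COL1A1, which went opposite ways. COL3A1 was at 13.3 and 13.4 CPM in WT and 0.0606 and 0.0538 CPM in KO. COL1A1 was at 6.42 and 6.35 CPM in WT and 9.03 and 9.89 CPM in KO. The sums are low, the KO libraries have the lowest endothelial, hepatocyte and fibroblast sums, and the part of these markers in the results was not tested. Genes of the mitochondrial genome took 4.45% to 8.91% of counts, with the lowest shares in KO.

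Across the 9 genes, T133A stood above KO throughout. The WT libraries lay between those of T133A and KO for C3, CFB, C1R, C1S, CD55 and CD59. For CD46, CFI and SERPING1, WT overlapped T133A. Compared with WT, 5 of the 9 rose in T133A (C3, CFB, C1R, C1S and CD55). Of all 16340 genes tested, 9.55% were called in either direction, 5.58% higher and 3.97% lower. In KO, 8 of the 9 fell from WT, where 46.6% of all genes were called, 23.0% lower and 23.6% higher. All 9 were higher in T133A than in KO, where 39.9% of all genes were called, 20.3% higher and 19.6% lower. With a log2 fold change of at least 1 also asked for, 4, 7 and 8 of the 9 were called in these comparisons, against 2.64%, 15.2% and 12.8% of all genes. SERPING1 and CFI, below 10 counts in both KO libraries, entered the test through the other groups. Both are among the 7 and the 8 just given and are part of the medians below. Of the remaining 7 genes, 6 fell in KO from WT and 7 were higher in T133A than in KO. The median log2 fold change of the 9 was 0.54 for T133A against WT, -1.84 for KO against WT and 3.07 for T133A against KO, with medians over all genes of 0.00, 0.00 and -0.01. Each pair of comparisons shares the libraries of a group, so their counts are not independent. The 9 genes were also chosen with earlier results of these data known. Their counts and medians therefore describe the 9, and an excess over the shares of all genes is no test of the set. RNA of a whole culture cannot tell fewer expressing cells from less RNA per cell.

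**Figure D1:**
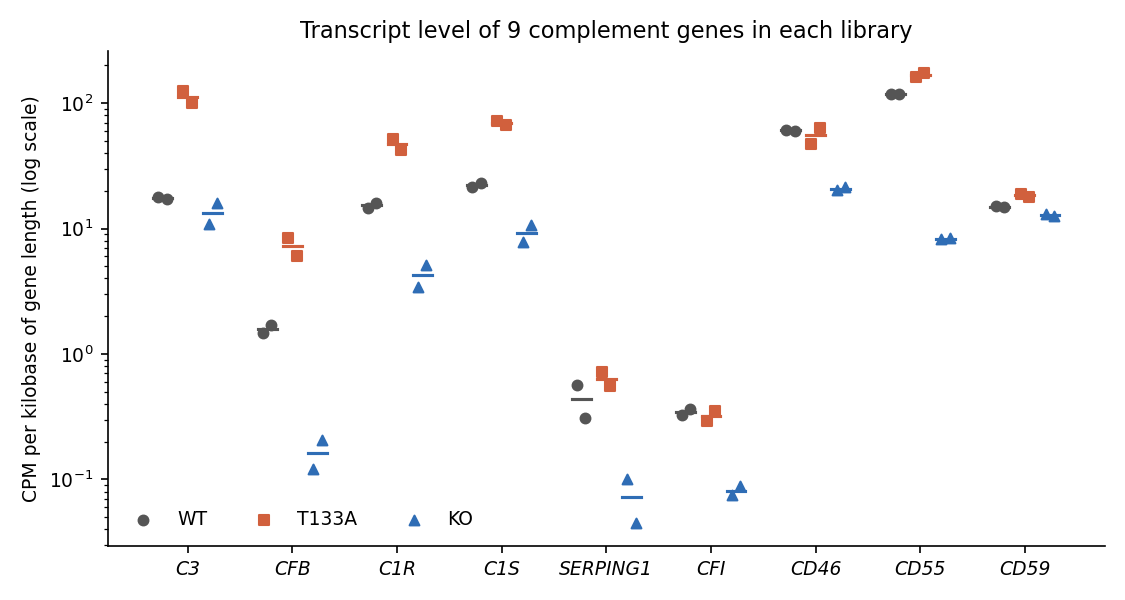
Level of each complement gene in each library, as CPM per kilobase of gene length on a log axis, with WT, T133A and KO as separate symbols and the mean of 2 libraries as a bar. C3 in T133A (124 and 100.4) sits far above C3 in WT (17.7 and 17.05), and CD55 in KO (8.30 and 8.35) sits far below CD55 in WT (118 and 117).

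C3 and factor B, the substrate and the protease of the alternative pathway convertase, had the largest rises in T133A. C3 (ENSG00000125730, chromosome 19, 6677704 to 6730562, GRCh38, reverse strand) is the protein on which all complement pathways meet. The WT libraries held 2529 and 2550 counts of it, those of T133A 17967 and 14240, and those of KO 1494 and 2453. These are 148 and 142 CPM in WT, 1032 and 836 CPM in T133A and 90.6 and 132 CPM in KO. The T133A libraries were far above all others, and the KO libraries were below both of WT, KO replicate 2 only narrowly.

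C3 was therefore 6.45-fold higher in T133A than in WT (log2 fold change 2.69, SE 0.144, adjusted p = 1.45e-11), and 64 of all genes tested, C3 among them, rose at least as far. T133A exceeded KO by 8.40-fold (log2 fold change 3.07, SE 0.146, adjusted p = 2.66e-13). The fall from WT to KO was small (log2 fold change -0.38, SE 0.138, adjusted p = 0.0293), and it rested on the KO library with the lower level. Without KO replicate 1 the log2 fold change was -0.11 (adjusted p = 0.456), and the call was also lost without WT replicate 1 (adjusted p = 0.0925), without T133A replicate 1 (0.126) or T133A replicate 2 (0.13), with DESeq2 (0.282) and with only the groups compared (0.0641).

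CFB (ENSG00000243649, chromosome 6, 31945650 to 31952084, forward strand) lies in the class III region of the major histocompatibility complex, next to C2. Its product, factor B, is the protease of the alternative pathway. The WT libraries held 126 and 152 counts of it, those of T133A 737 and 514, and those of KO 10 and 19, or 7.35 and 8.46 CPM, 42.3 and 30.2 CPM, and 0.606 and 1.02 CPM. The 3 groups did not overlap.

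CFB was 4.58-fold higher in T133A than in WT (log2 fold change 2.19, SE 0.18, adjusted p = 8.18e-09) and 9.72-fold lower in KO than in WT (log2 fold change -3.25, SE 0.282, adjusted p = 2.90e-09). T133A against KO gave the widest difference of any of the 9 genes, 44.5-fold (log2 fold change 5.45, SE 0.249, adjusted p = 4.10e-14). From the counts alone, with exact 95% intervals that cover counting error only, the ratio of WT to KO was 9.59 (6.53 to 14.6) and that of T133A to KO 43.9 (30.4 to 65.9). Whether C3 and CFB differed in their response was not tested. Per kilobase, C3 exceeded CFB by 10.1-fold to 12.04-fold in WT, by 14.6-fold and 16.6-fold in T133A and by 89.6-fold and 77.5-fold in KO. An annotated gene joining C2 and CFB (AL645922.1) covers nearly all of CFB and was listed at 0, and how reads in both were counted is not given in the sources used here. C2 itself had 1 to 21 counts per library.

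The C1 proteases C1r and C1s are encoded by neighbouring genes on chromosome 12 and had nearly the same fold change in T133A. C1R (ENSG00000159403, 7080199 to 7092607, reverse strand), whose product activates C1s, had 1471 and 1686 counts in the WT libraries, 5303 and 4207 in those of T133A, and 330 and 557 in those of KO. The levels were 85.9 and 93.9 CPM, 304 and 247 CPM, and 20.01 and 29.9 CPM. Each group was clear of the other 2. C1R was 3.07-fold higher in T133A than in WT (log2 fold change 1.62, SE 0.138, adjusted p = 1.98e-08) and 3.60-fold lower in KO than in WT (log2 fold change -1.84, SE 0.148, adjusted p = 9.52e-10). T133A exceeded KO by 11.04-fold (log2 fold change 3.46, SE 0.152, adjusted p = 2.86e-14).

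C1S (ENSG00000182326, 6988259 to 7071032, forward strand) encodes the protease that cuts C4 and C2. The WT libraries held 2394 and 2696 counts of it, those of T133A 8034 and 7327, and those of KO 838 and 1288, or 140 and 150 CPM, 461 and 430 CPM, and 50.8 and 69.2 CPM. Again no group overlapped another. It was 3.08-fold higher in T133A than in WT (log2 fold change 1.62, SE 0.12, adjusted p = 1.38e-09) and 2.41-fold lower in KO than in WT (log2 fold change -1.27, SE 0.123, adjusted p = 1.75e-08) and in T133A it exceeded KO by 7.43-fold (log2 fold change 2.89, SE 0.127, adjusted p = 2.14e-14).

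Per kilobase, C1S exceeded C1R by 1.48-fold and 1.46-fold in the WT libraries and by 1.38-fold and 1.59-fold in T133A, and by 2.31-fold and 2.11-fold in KO. The pair thus kept its ratio near the WT value in T133A, and the ratio in both KO libraries was above that in all others. An exact permutation test of 2 libraries against 2 cannot go below p = 0.333, and no other test of this difference in ratio was run. The annotated span of C1R overlaps C1RL on the same strand, and that of C1S overlaps EMG1 on the same strand and LPCAT3 on the opposite strand, so some of their counts may be shared.

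The fluid-phase inhibitors were scarce. SERPING1 (ENSG00000149131, chromosome 11, 57597387 to 57614853, forward strand), encoding C1 inhibitor, had 35 and 20 counts in the WT libraries, 45 and 34 in those of T133A, and 6 and 3 in those of KO. The levels were 2.04 and 1.11 CPM, 2.58 and 1.996 CPM, and 0.364 and 0.161 CPM. WT and T133A overlapped, and both KO libraries were below all others. SERPING1 fell in KO from WT (log2 fold change -2.58, SE 0.555, adjusted p = 6.03e-04) and T133A exceeded KO (log2 fold change 3.12, SE 0.532, adjusted p = 6.15e-05). Without KO replicate 1 these values were -3.21 and 3.74. With any 1 library left out they ran from -3.21 to -2.08 and from 2.64 to 3.74. SERPING1 entered the test through its counts in WT and T133A, and such a filter favours a fall in KO. The counting interval for the ratio of WT to KO ran from 2.996 to 14.1 around 6.11, and for T133A to KO from 4.48 to 20.3 around 8.94. T133A against WT stood at 0.54 (SE 0.4, adjusted p = 0.456) and was not called at this depth. The counting interval for the ratio of T133A to WT ran from 1.02 to 2.10 around 1.46. With any 1 library left out the log2 fold change ran from 0.15 to 1.03. The target proteases of C1 inhibitor rose 3.07-fold and 3.08-fold. The difference between the inhibitor's response and that of the proteases was not tested.

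CFI (ENSG00000205403, chromosome 4, 109740694 to 109802179, reverse strand), encoding the protease that inactivates C3b, had 27 and 32 counts in the WT libraries, 25 and 29 in those of T133A, and 6 and 8 in those of KO. The levels were 1.58 and 1.78 CPM, 1.44 and 1.70 CPM, and 0.364 and 0.43 CPM. T133A and WT overlapped (log2 fold change -0.10, SE 0.389, adjusted p = 0.918), with a ratio of counts between 0.632 and 1.37. CFI fell in KO from WT (log2 fold change -2.06, SE 0.477, adjusted p = 0.0012) and T133A exceeded KO (log2 fold change 1.96, SE 0.481, adjusted p = 0.00238). Like SERPING1, it entered the test through WT and T133A, which favours a fall in KO. C3, on which factor I acts once it is activated, was per kilobase 54.8 and 46.6 times CFI in WT, 421 and 287 times CFI in T133A, and 146 and 179 times CFI in KO. An annotated gene on the same strand, AC126283.2, covers most of CFI and was listed at 0.

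**Figure D2:**
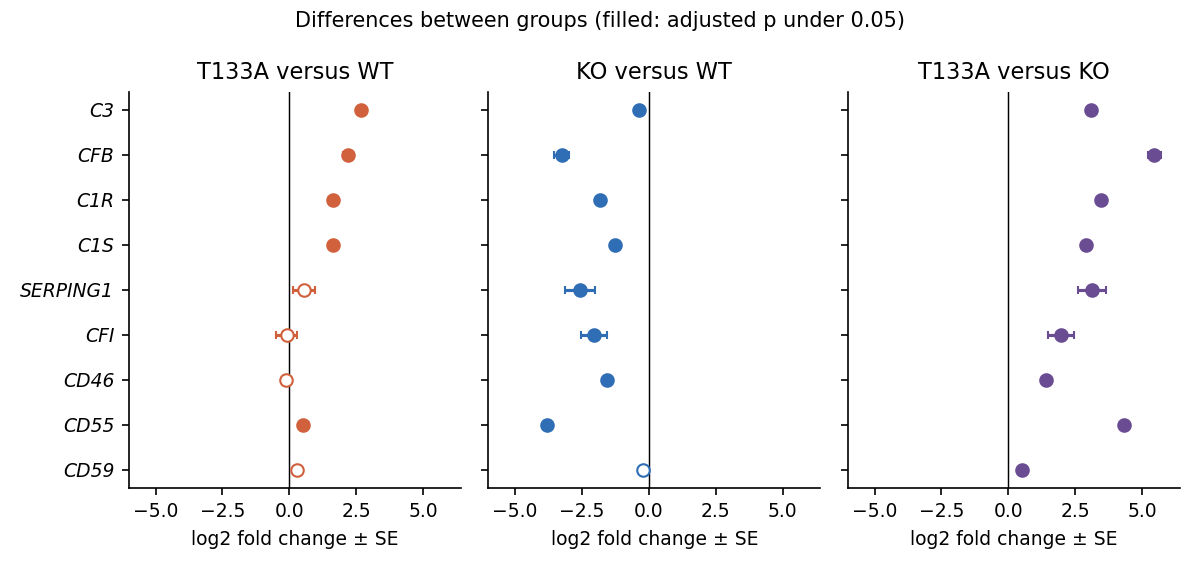
Log2 fold change with its SE for each of the 9 genes in each comparison, with filled points for adjusted p under 0.05. All points for T133A against KO are filled and positive (0.51 to 5.45), and in T133A against WT the filled points are C3, CFB, C1R, C1S and CD55.

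The membrane regulators differed in the size of their fold changes. CD55 (ENSG00000196352, chromosome 1, 207321376 to 207386804, forward strand) encodes decay-accelerating factor, a GPI-anchored protein that takes apart the C3 convertases. The WT libraries held 11936 and 12449 counts of it, those of T133A 16726 and 17411, and those of KO 809 and 918. The levels were 697 and 693 CPM, 960 and 1022 CPM, and 49.05 and 49.4 CPM. Libraries of a group lay close together and the groups far apart.

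CD55 was 14.1-fold lower in KO than in WT (log2 fold change -3.82, SE 0.113, adjusted p = 1.71e-17), and 208 of all genes tested, CD55 among them, fell at least as far. It was 1.43-fold higher in T133A than in WT (log2 fold change 0.51, SE 0.0989, adjusted p = 0.00122), a call lost without WT replicate 2 (log2 fold change 0.50, adjusted p = 0.0514). T133A exceeded KO by 20.1-fold (log2 fold change 4.33, SE 0.115, adjusted p = 2.33e-18).

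CD46 (ENSG00000117335, chromosome 1, 207752057 to 207795513, forward strand) encodes membrane cofactor protein, which lets factor I cut C3b on the cell, and lies in the same cluster of complement regulator genes. The WT libraries held 9181 and 9433 counts of it, those of T133A 7211 and 9427, and those of KO 2899 and 3467, or 536 and 525 CPM, 414 and 554 CPM, and 176 and 186 CPM. The T133A libraries lay on either side of WT, and KO was below all of them. CD46 was 2.93-fold lower in KO than in WT (log2 fold change -1.55, SE 0.119, adjusted p = 3.91e-10) and in T133A it exceeded KO by 2.67-fold (log2 fold change 1.42, SE 0.119, adjusted p = 1.90e-09). T133A against WT stood at -0.13 (SE 0.116, adjusted p = 0.538), at -0.35 (adjusted p = 0.0104) without T133A replicate 2 and at 0.08 (adjusted p = 0.774) without T133A replicate 1.

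CD59 (ENSG00000085063, chromosome 11, 33703010 to 33736491, reverse strand) encodes protectin, a GPI-anchored inhibitor of the membrane attack complex. The WT libraries held 2685 and 2743 counts of it, those of T133A 3404 and 3172, and those of KO 2246 and 2438, which are 157 and 153 CPM, 195 and 186 CPM, and 136 and 131 CPM. The groups did not overlap, with T133A highest and KO lowest, but the steps were small. T133A was 1.43-fold above KO (a log2 difference of 0.51, SE 0.099, adjusted p = 2.38e-04). T133A against WT (log2 fold change 0.30, SE 0.0986, adjusted p = 0.0556) and KO against WT (log2 fold change -0.21, SE 0.0991, adjusted p = 0.0837) stood just outside the threshold and passed it under some other settings.

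Summed over CD46, CD55 and CD59, the level per kilobase was 195 and 192 CPM in the WT libraries, 229 and 255 in those of T133A, and 41.6 and 42.4 in those of KO. CD55 made up 60.6% and 61.0% of this sum in the WT libraries, 71.0% and 68.0% in those of T133A, and 19.9% and 19.7% in those of KO. CD46 was the largest part in KO, at 48.5% and 50.5%, and CD59 went from 7.78% and 7.66% in WT to 31.6% and 29.8% in KO. CD55 per kilobase was 1.92 and 1.95 times CD46 in WT, 3.42 and 2.72 times CD46 in T133A, and 0.411 and 0.39 times CD46 in KO, with no overlap between groups. The KO libraries differed from WT in the make-up of this set of transcripts as well as in its sum.

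**Figure D3:**
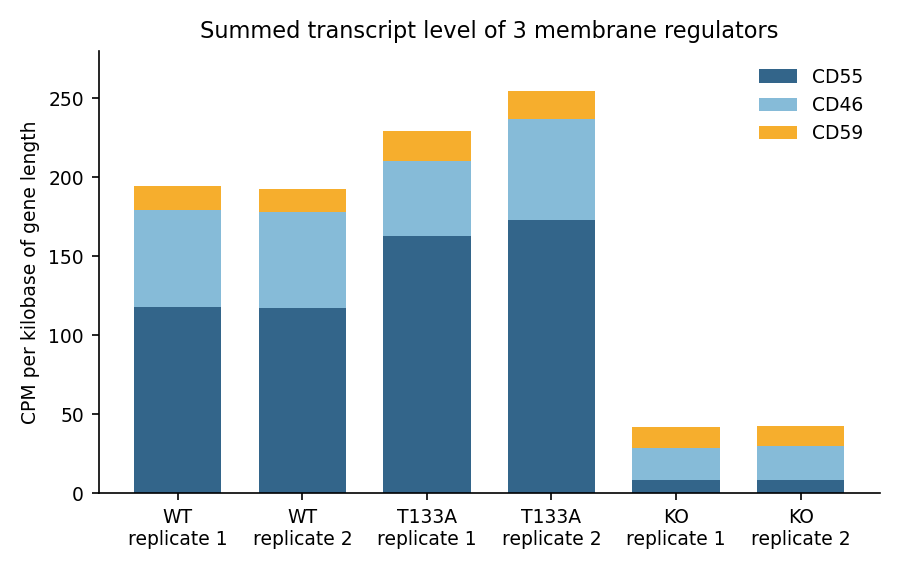
Stacked bars of CPM per kilobase for CD55, CD46 and CD59 in each library. The sum is 41.6 and 42.4 in the KO libraries against 192 to 255 in the others, and the CD55 segment shrinks most.

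Per kilobase, the order of levels changed between groups. In WT it ran from CD55 (118 ± 0.414 CPM per kilobase, SD, n = 2) through CD46 (60.9 ± 0.861), C1S (22.4 ± 1.14), C3 (17.4 ± 0.477), C1R (15.3 ± 0.964) and CD59 (14.9 ± 0.271) to CFB (1.58 ± 0.157), SERPING1 (0.438 ± 0.182) and CFI (0.344 ± 0.0299). C1R and CD59, and SERPING1 and CFI, did not separate beyond their spread. In T133A, C3 (112 ± 16.6) came next after CD55 (168 ± 7.41), followed by C1S (69.0 ± 3.40), CD46 (55.6 ± 11.3) and C1R (46.9 ± 6.91), of which the last 2 overlapped. In KO, CD46 led (20.8 ± 0.863), C3 (13.4 ± 3.51) and CD59 (12.9 ± 0.348) overlapped behind it, and C1S (9.29 ± 2.02) overlapped CD55 (8.33 ± 0.0366). Among 13538 protein-coding genes tested, the level of CD55 per kilobase lay at percentile 98.4 in WT, 98.9 in T133A and 64.2 in KO. C3 lay at percentile 82.7, 98.1 and 76.0, respectively.

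Replicates of a group differed for some of the 9 genes. On the log2 scale, KO replicate 2 exceeded KO replicate 1 by 0.54 for C3, 0.57 for C1R, 0.44 for C1S and 0.46 for CFB, where the percentiles 5 and 95 of all tested genes were -0.55 and 0.45. The same difference was 0.01 for CD55, 0.08 for CD46 and -0.05 for CD59. In T133A, replicate 2 was below replicate 1 by 0.30 for C3, 0.48 for CFB, 0.30 for C1R and 0.10 for C1S, and CD46 went the other way, with a difference of 0.42. All of these lay within the percentiles 5 and 95 in T133A, -0.50 and 0.50. In KO these 4 genes, C3, CFB, C1R and C1S, differed more between replicates than the 3 membrane regulators did. For SERPING1, with few counts, replicate 2 minus replicate 1 was -0.66 in WT, where the percentiles were -0.39 and 0.43, and -0.39 in KO.

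Over the 6 libraries, likeness of pattern was measured as the distance between log2 levels (CPM plus 0.5), each centred on its own mean. A distance of 0 means identical patterns on this scale. The added 0.5 shrinks differences of genes near 1 CPM or below, such as CFI and SERPING1. Group means of CFI ranged over 1.28 on this scale, while its tested log2 fold change in KO from WT was -2.06. Distances of CFI and SERPING1 therefore partly reflect the offset. Of the 36 pairs among the 9 genes, the closest were CFI with CD46 (0.344) and C1R with C1S (0.676), and the farthest were CFB with CD59 (4.34) and CD55 with CD59 (4.28). CD46 and CD55, which lie in the same gene cluster, were at a distance of 3.07. Outside the 9, the protein-coding gene most like C3 was RHCG (distance 0.323), an ammonia transporter gene, at 3.25 CPM in WT, 21.4 in T133A and 2.27 in KO, followed by XDH (0.649) and IGFBP1 (0.65). CFB was nearest to OLR1 (0.698), CEACAM7 (0.802) and the chemokine gene CXCL5 (0.876).

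The matrilysin gene MMP7 was the nearest to C1R (0.443), ahead of SLPI (0.661) and CCL5 (0.665). C1S was nearest to EFNA1 (0.248) and AHCYL2 (0.31), with MMP7 next (0.487). CD55 was nearest to ATP8B4 (0.428), TRIM31 (0.443) and IFI27 (0.495). CD46 was nearest to STARD4 (0.126), ADD3 (0.142) and IL15 (0.194), CFI to IFI16 (0.15), TRPS1 (0.179) and DTX3L (0.185), and SERPING1 to ANXA10 (0.461), FRMD3 (0.49) and IGFBP3 (0.494). For CFI and SERPING1 these distances also carry the effect of the added 0.5. With 3 groups among 6 libraries many genes share a pattern, and these names describe likeness of level only.

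Of 49 other complement genes, 29 had too few counts to be tested, and 15 of those had no count in any library. The untested genes included all 3 C1q chains (C1QA, C1QB and C1QC, listed at 0), MBL2, the ficolins, C6, C7, C8A, C8B and C9, with at most 21 counts in any library. Of the 20 tested, 2 rose and 5 fell in T133A from WT, with a median log2 fold change of -0.14. In KO from WT, 3 rose and 11 fell (median -1.04), and T133A exceeded KO for 8 and was below it for 1 (median 0.68). The 11 include C4BPB, with 7 and 5 counts in KO, and MASP2, with 5 and 1. Both entered the test through other groups, which favours a fall in KO, and C4BPB is also among the 8. The shares of all genes called in these comparisons were 9.55%, 46.6% and 39.9%.

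In T133A these genes did not follow C3 as a set. C5, from which the terminal pathway starts, had 72.5 and 69.8 CPM in WT and fell in T133A, to 31.8 and 38.6 CPM (log2 fold change -1.02, SE 0.128, adjusted p = 7.03e-06). CFD, the protease that cuts factor B, had 96.1 and 102 CPM in WT and fell likewise, to 75.5 and 55.6 CPM (log2 fold change -0.60, SE 0.133, adjusted p = 0.00445). C4BPA, encoding a chain of the C4b-binding protein, had 27.02 and 23.2 CPM in WT and rose, to 44.4 and 44.6 CPM (log2 fold change 0.82, SE 0.16, adjusted p = 0.00128; with DESeq2, adjusted p = 0.245).

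VTN, encoding vitronectin, an inhibitor of the terminal complex, fell (log2 fold change -0.55, SE 0.155, adjusted p = 0.0254), but not without either WT replicate 1 (adjusted p = 0.0775), WT replicate 2 (0.0832) or T133A replicate 2 (0.0644), nor with DESeq2 (0.0584). C5AR1, the C5a receptor gene, was at the threshold (-0.87 on the log2 scale, SE 0.278, adjusted p = 0.0497). Its call was lost with DESeq2 (adjusted p = 0.252), limma-voom (0.0571) and no low-count filter (0.0532). It was also lost without either WT replicate or either T133A replicate. With any 1 library left out the log2 fold change ran from -1.03 to -0.71. ITGAM, a chain of complement receptor 3 usually found on leukocytes, had 25 and 21 counts in the WT libraries and 75 and 45 in those of T133A (log2 fold change 1.40, SE 0.314, adjusted p = 0.00468). Its call was lost without T133A replicate 1 (log2 fold change 1.02, adjusted p = 0.0962).

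In KO, 7 of the 9 genes named from this list fell from WT and 2 rose. These 9 were named for small adjusted p in these same comparisons, so that count is no share of the list. Of the 20 tested, 11 fell and 3 rose, where 23.0% of all genes were called lower and 23.6% higher. C4BPA went to 0.909 and 2.26 CPM (log2 fold change -3.95, SE 0.228, adjusted p = 2.82e-12), VTN to 4.49 and 7.58 CPM (-2.71, SE 0.179, adjusted p = 3.03e-11) and C5 to 10.1 and 12.2 CPM (-2.67, SE 0.142, adjusted p = 6.22e-13). Without KO replicate 2 the value of C4BPA was -4.79. CFD fell to 36.01 and 45.2 CPM (log2 fold change -1.29, adjusted p = 7.44e-08). C1RL fell to 26.4 and 28.7 CPM from 58.4 and 56.07 CPM (log2 fold change -1.06, adjusted p = 2.16e-07). C5AR1 stood at -1.02 (adjusted p = 0.00499) and C4BPB, with 7 and 5 counts in KO, at -1.63 (adjusted p = 0.018). C5AR1 was not called without WT replicate 2 (log2 fold change -0.85), nor C4BPB without WT replicate 2 (-1.13) or KO replicate 2 (-1.35). With DESeq2, C4BPB was not called either (adjusted p = 0.0769). It entered the test through its counts in WT and T133A, which favours a fall in KO. C1QBP, a mitochondrial protein also described as a receptor for C1q, rose to 537 and 561 CPM from 328 and 331 CPM (log2 fold change 0.74, adjusted p = 9.03e-06). ITGAM rose to 92 and 93 counts (log2 fold change 2.003, adjusted p = 1.10e-05). ITGAM was thus higher than in WT in both other groups, comparisons that share the WT libraries.

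**Figure D4:**
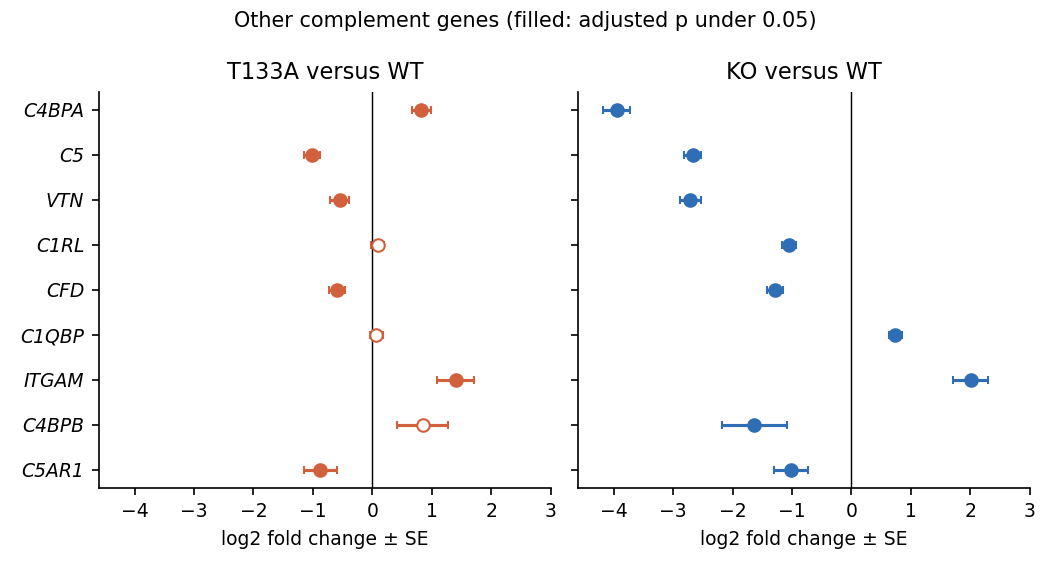
Log2 fold change with its SE for 9 genes of the wider complement list, against WT, with filled points for adjusted p under 0.05. C5, VTN, CFD and C5AR1 are below 0 in both panels, and C4BPA is at 0.82 in T133A and -3.95 in KO.

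CD55 and CD59 reach the cell surface through a GPI anchor, which a set of PIG, PGAP and DPM proteins builds and attaches. Of 28 such genes 27 were tested. In T133A against WT, edgeR and DESeq2 each called 0 of them, and 0 had an unadjusted p under 0.05 by either tool, where edgeR called 9.55% of all genes. With the GC and length correction 2 were called, PIGS among them. In KO against WT 2 were higher and 7 lower (46.6% of all genes), with a median log2 fold change of -0.16. The smallest adjusted p among these falls was that of PIGT, a subunit of the transamidase that attaches the anchor, which had 230 and 241 CPM in WT libraries, against 143 and 168 CPM in those of KO (a log2 fold change of -0.60, SE 0.114, adjusted p = 1.79e-04). PIGS, another transamidase subunit, had 125 and 127 CPM in WT and fell as well, to 84.0 and 94.5 CPM (log2 fold change -0.50, SE 0.109, adjusted p = 7.08e-04).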

How the data were processed

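RNA sequencing of 6 A549 libraries was analysed from the tables deposited by the authors, 1 per library. The deposited counts are whole reads per gene with no normalization. The FPKM values deposited by the authors divide each count by gene length and by 0.967 to 1.03 times the library total, and served only for that check. HISAT2 2.0.5 and featureCounts 1.5.0 on GRCh38 are listed in the submitters' processing notes. For the strand setting and the annotation release, the value was not given in the sources used here. Genes were tested with edgeR 4.0.16 (R 4.3.3; TMM, filterByExpr, robust quasi-likelihood, two-sided, Benjamini-Hochberg over 16340 genes, threshold 0.05) in a fit of all 6 libraries by group. SE is the log2 fold change divided by the root of its F statistic. A count of 0 allows up to 3 counts, 0.16 to 0.184 CPM. CPM uses TMM-scaled library totals, and per-kilobase levels use the deposited gene length. Alternatives were DESeq2 1.42.0, limma-voom (limma 3.58.1), other scalings and filters, only the groups compared, the replicate block, each library left out, no mitochondrial genes, and a GC and length correction from GENCODE 29 transcripts (99.95% of tested genes had a value). The test was checked on simulated counts. Python 3.11.15 with pandas 2.3.3, scipy 1.17.1, numpy 2.4.6 and matplotlib 3.10.9 made tables and figures.

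The 9 genes and the gene lists were chosen with earlier results of these data known. Named genes are the 9, HOXB9, the 10 genes of the wider complement list and the leading genes of the GPI list with the smallest adjusted p among those called with at least 1 CPM, and the 3 nearest protein-coding genes of at least 5 CPM (10785 candidates, log2 of CPM plus 0.5) for each of the 8 members whose group means ranged over more than 1. Of the 10, 1 is not reported here. Endothelial, haematopoietic, fibroblast, hepatocyte and epithelial markers were summed as CPM.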

Additional observations from a re-analysis of the deposited data

How the results depend on the processing

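Of 462 values of the 9 genes under 17 or 18 alternatives per comparison, 435 kept their direction and side of the threshold, 10 lost the call, 14 gained it and 3 changed sign without a call in either setting. The number of the 9 called ran from 4 to 7 in T133A against WT, 7 to 9 in KO against WT and 7 to 9 in T133A against KO. With any 1 library left out these were 4 to 7, 7 to 8 and 9. The minimum mean of 5 CPM left CFI and SERPING1 out. In T133A against WT, CD46 changed sign with the GC and length correction (0.036) and without T133A replicate 1 (range with a library left out -0.353 to 0.0766), and CFI without T133A replicate 1 (-0.221 to 0.035). Among the other named genes, also uncalled there, C1QBP changed sign with library size only (-0.0097) and without T133A replicate 1 (-0.0898 to 0.224), C1RL (-0.016) and PIGT (0.0479) with the GC and length correction, PIGT without T133A replicate 2 (-0.206 to 0.0957) and HOXB9 without T133A replicate 1 (-0.0473 to 0.327), and C5AR1 in T133A against KO without KO replicate 1 (-0.0400 to 0.342). HOXB9 in T133A against WT was called without T133A replicate 2 (adjusted p = 0.0202). PIGS was called in T133A against WT with the GC and length correction (adjusted p = 0.0387). CD59 in T133A against WT was called with DESeq2 (adjusted p = 0.033), limma-voom (0.0469), the GC and length correction (0.00197) and only the groups compared (0.0392), and without T133A replicate 2 (0.0156), KO replicate 1 (0.0346) or KO replicate 2 (0.0356). In KO against WT it was called with library size only (0.0314), a minimum mean of 5 CPM (0.0207), only the groups compared (0.0263), without mitochondrial genes (0.0487) and without T133A replicate 1 (0.0389) or T133A replicate 2 (0.0425). The cause was not tested.

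Over all genes in T133A against WT, 1560 were called, and 763 without WT replicate 1, 840 without WT replicate 2, 2579 without T133A replicate 2, 2436 with the GC and length correction and 431 with a minimum log2 fold change of 1. That minimum left 2490 of 7622 in KO against WT and 2097 of 6523 in T133A against KO. Replicate numbers are shared between groups, and deviations of equal numbers correlated at -0.07, 0.04 and -0.17 over genes. With 2 libraries per group, these values cannot tell whether equal numbers pair the samples. With the replicate number as a block, 5, 8 and 9 of the 9 genes were called, and no call of the 9 changed. A crossed block for T133A against KO, chosen after the data were seen, called 9. Counting error limits SERPING1 and CFI most.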
